A study of Homo sapiens with 3 samples.

Results

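Tubulin isotypes were examined in HT29, a long-established line of human colorectal cancer cells, through every array probe whose gene symbol in the platform annotation is TUBA1A, TUBA1B, TUBA1C, TUBA4A, TUBB, TUBB2A, TUBB2B, TUBB3, TUBB4B or TUBB6. These are 10 genes, 4 of alpha tubulin and 6 of beta tubulin, read by 13 of the 24460 gene probes on the array; 18639 genes had a probe in all. The series was made to find genes whose expression differs in HT29 cells given a linderapyrone derivative, a small molecule, from that in cells given the solvent DMSO. Cells grown in low-glucose medium with serum spent 24 h in medium with 20 µM of the derivative, 5 µM of it, or DMSO, and total RNA was measured on 1-colour oligonucleotide arrays. There was 1 array per group, 3 in all. Sample titles give the doses in mM, whereas the treatment labels and descriptions give µM, which was used here.

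Microtubules are built from dimers of alpha and beta tubulin, and each subunit is encoded by several genes whose proteins, the isotypes, differ mostly in their tails. New tubulin is folded by prefoldin, the chaperonin CCT and tubulin folding cofactors before dimers form. When free dimers are abundant, TTC5 recognises nascent tubulin on the ribosome, and SCAPER and the CCR4-NOT deadenylase then act to degrade the tubulin mRNA. TUBA1B, TUBA1C, TUBB and TUBB4B are widely expressed in dividing cells, while TUBB3 is best known as a neuronal isotype.

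With 1 array per group there was no replicate, the spread between cultures is unknown, and no test was made. The median spot signal of gene probes was 117 with DMSO, 107 with 5 µM and 110 with 20 µM; a probe counted as detected above 82.5, 79.4 and 80.2 on these arrays. The share of gene probes detected was 85.6% to 86.2%. The 99th percentile of 2412 empty array positions was 86.0, 82.5 and 83.6 in the same order, above each threshold. A probe just above the threshold can thus be as dim as an empty position, and its detection does not show expression. The one spread that could be measured was technical. Where a gene outside the tubulins had 2 probes, both with a mean spot signal of at least 300, one log2 ratio had an SD of 0.15 in either comparison with DMSO and 0.12 between the doses, over 322 genes. An offset of 50 was added to the corrected signal before logs were taken, so ratios of dim probes are drawn towards 0. The 3 comparisons share arrays, so their values for a gene are not independent.

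The cell line label was set against markers. All 10 markers of colon epithelium were detected on all 3 arrays, among them the surface protein EPCAM with a spot signal of 7149 at 20 µM and 9660 in DMSO. At 20 µM against DMSO 6 of the 10 had log2 ratios above 0 and 4 below, where 47.1% of all genes lay below 0. The keratin gene KRT20 was at 0.92, with 1927 at 20 µM and 1167 in DMSO, the lectin gene LGALS4 at 0.54, with 5404 and 4288, and VIL1, which encodes villin of the brush border, at -0.48, with 397 and 612. CDX2 and CDH17, markers of intestinal identity, lay close to the threshold, at 87.3 and 87.0 at 20 µM and at 92.6 and 88.6 in DMSO. The collagen genes COL1A1 and COL1A2 of fibroblasts and PTPRC of blood cells were not detected on any array, nor were the neuronal genes DCX and ELAVL4. The fibroblast gene DCN had 211 at 20 µM and 231 in DMSO on 1 probe. Its second probe was not detected on any array. On both the 20 µM and DMSO arrays, 9 of 12 neuron markers, 4 of 6 fibroblast markers and 2 of 3 blood and immune markers were detected, with DMSO signals of at most 176, 231 and 146. The largest ratios among them were NEFM at 0.33, NEFL at -0.12 and INA at 0.08 for neurons, LUM at 0.07, COL3A1 at 0.04 and PDGFRB at -0.04 for fibroblasts, and CD14 at -0.20 and CD3E at -0.04 for blood and immune cells. Of all gene probes, 85.7% were detected at 20 µM and 86.2% in DMSO. COL3A1, at 84.6 in DMSO, and CDH17, at 82.2 at 5 µM, lay below the 99th percentile of empty positions on those arrays. Detection of such dim markers does not show that they are expressed.

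All 13 tubulin probes were detected on all 3 arrays, but they fell into 2 groups by brightness. Of the 10 genes, 6 are called strong here, with a mean spot signal of at least 300 over the arrays: TUBA1B, TUBA1C, TUBA4A, TUBB, TUBB2A and TUBB4B. The other 4, TUBA1A, TUBB2B, TUBB3 and TUBB6, stayed below 130 on every array. Signals of different probes are not set against each other, since probes differ in how brightly they bind. Fewer cells expressing a gene and less of its RNA per cell cannot be told apart in such bulk RNA.

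**Figure D1:**
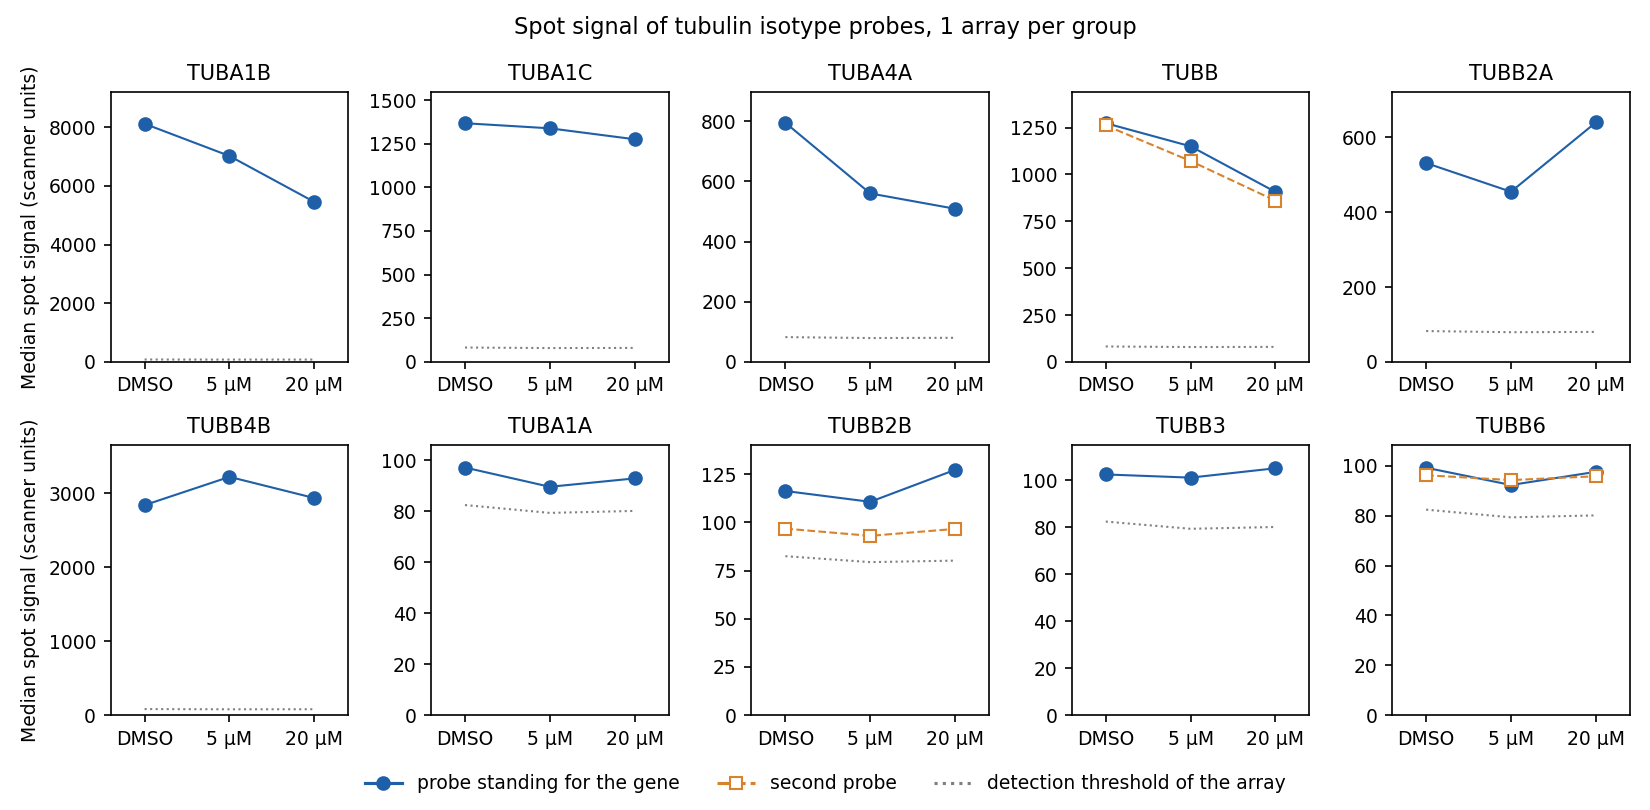
Median spot signal, in scanner units, of each tubulin probe on the DMSO, 5 µM and 20 µM arrays, with 1 array per group and no normalization. Filled circles are the probe standing for the gene, open squares a second probe, and the dotted line is the detection threshold; the vertical axis starts at 0 and differs between genes. TUBA1A, TUBB2B, TUBB3 and TUBB6 lie above the threshold on every array and stay below 130.

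At 5 µM, strong isotypes had log2 ratios to DMSO between -0.18 and 0.55 with a median of 0.19, and 5 of the 6 lay above 0, where 49.8% of strong genes did; under median scaling TUBA1B, TUBB and TUBB2A also took a negative sign there. At 20 µM they were spread on both sides, between -0.48 and 0.45 with a median of -0.11. TUBB2A was the strong isotype with the highest ratio at 20 µM, and TUBA4A, TUBA1B and TUBB were the lowest. No isotype was 2-fold different in any comparison. Among all genes detected on both arrays, 0.0498% were 2-fold higher and 0.00622% lower at 5 µM against DMSO, 0.442% and 0.324% at 20 µM against DMSO, and 0.131% and 0.0935% at 20 against 5 µM.

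TUBA1B encodes a major alpha tubulin of dividing cells. Its spot signal was 8121 with DMSO, 7023 with 5 µM and 5456 with 20 µM, the lowest of the 3 at 20 µM. After normalization its log2 ratio was 0.17 for 5 µM against DMSO, -0.38 for 20 µM against DMSO and -0.55 for 20 against 5 µM. The first of these turned to -0.09 under median scaling, so the 5 µM array had no settled direction for TUBA1B. The negative values at 20 µM kept their sign under all 4 other ways of processing, between -0.50 and -0.38 against DMSO and between -0.55 and -0.42 against 5 µM. In the authors' deposited value table TUBA1B had 3813 with DMSO, 4030 with 5 µM and 2864 with 20 µM.

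TUBB, the most widely expressed beta tubulin, was read by 2 probes. The probe standing for the gene had a spot signal of 1274 with DMSO, 1150 with 5 µM and 907 with 20 µM. The second TUBB probe gave 1262, 1072 and 860 in the same order. On both probes the 20 µM array was the lowest. The log2 ratio for 20 µM against DMSO was -0.31 on the first probe and -0.38 on the second, and for 20 against 5 µM it was -0.52 and -0.49. For 5 µM against DMSO the ratios were 0.21 and 0.12, and both probes took a negative sign under median scaling. The 2 probes lay within 0.10 of each other in all 3 comparisons, which is less than the technical SD of a ratio. TUBB and TUBA1B, a beta and an alpha isotype, differed on the log2 scale by 0.04 at 5 µM and 0.07 at 20 µM against DMSO, and by 0.03 between the doses.

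TUBA4A encodes an alpha tubulin that is abundant in platelets and also made elsewhere. It had a spot signal of 795 with DMSO, 560 with 5 µM and 509 with 20 µM, below DMSO at both doses. Its log2 ratio was -0.18 at 5 µM and -0.48 at 20 µM against DMSO, and -0.30 for 20 against 5 µM. With quantile normalization TUBA4A was the single strong isotype with a negative ratio at 5 µM, and all 3 ratios kept their sign under the 4 other ways of processing. By the distance between both ratios to DMSO, over 15920 genes detected on 3 arrays, the genes nearest to TUBA4A were ZNHIT1 at 0.012, SKA3 at 0.014 and SLC39A10 at 0.014. There were 53 genes within a distance of 0.05.

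TUBB2A encodes a beta tubulin of class II. It was the one strong isotype with its highest spot signal at 20 µM, with 531 with DMSO, 455 with 5 µM and 640 with 20 µM. The log2 ratio was 0.10 at 5 µM and 0.45 at 20 µM against DMSO, and 0.35 for 20 against 5 µM. Both ratios of the 20 µM array stayed positive under the 4 other ways of processing, at 0.36 to 0.49 against DMSO and 0.34 to 0.46 against 5 µM; the ratio at 5 µM turned to -0.11 under median scaling. TUBB2A was 0.76 above TUBB on the log2 scale at 20 µM against DMSO, or 1.70-fold, with 0.73 to 0.81 under the 4 alternatives. For 20 against 5 µM it was 0.87 above TUBB, or 1.83-fold, with 0.83 to 0.91. The technical SD of such a difference was 0.21 for the first comparison and 0.17 for the second.

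TUBB4B, a beta tubulin of class IV found in many tissues and in cilia, had its highest signal at 5 µM. Its spot signal was 2840 with DMSO, 3222 with 5 µM and 2936 with 20 µM. The log2 ratio was 0.55 at 5 µM and 0.24 at 20 µM against DMSO, and -0.31 for 20 against 5 µM. These signs held under the 4 other ways of processing, with 0.31 to 0.55 at 5 µM and 0.12 to 0.24 at 20 µM. Of the 4041 strong genes on the array, 1.29% had a higher ratio than TUBB4B at 5 µM.

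TUBA1C, another alpha tubulin of dividing cells, varied least in raw signal among the strong isotypes, with 1367 with DMSO, 1338 with 5 µM and 1275 with 20 µM. The log2 ratio was 0.35 at 5 µM and 0.10 at 20 µM against DMSO, and -0.25 for 20 against 5 µM. Under median scaling these ratios were 0.09, -0.03 and -0.12, so the size at 5 µM and the direction at 20 µM depended on the scaling. TUBA1B was 0.48 below TUBA1C on the log2 scale at 20 µM against DMSO, with 0.47 to 0.48 under the alternatives. The pair lies in a row of alpha tubulin genes on chromosome 12, with TUBA1A between them.

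Counts were taken of isotypes with a log2 ratio of at least 0.32 in size. At 5 µM against DMSO, 2 of 10 isotypes were higher, TUBA1C and TUBB4B, and 0 were lower; among 16075 genes detected on both arrays 1.82% were higher and 1.87% lower, and among strong genes 5.44% and 4.45%. Under median scaling these counts became 0 higher and 1 lower, TUBA4A at -0.40, and the value table left 1 higher. At 20 µM against DMSO, 1 isotype was higher, TUBB2A, and 2 were lower, TUBA1B and TUBA4A. Among 16062 genes the shares were 5.85% higher and 7.32% lower, and among strong genes 14.1% and 16.4%. TUBB, at -0.31 on the first probe, lay just short of that size. For 20 against 5 µM, 1 was higher, TUBB2A, and 2 were lower, TUBA1B and TUBB, where 3.98% and 3.99% of 16036 genes, and 9.33% and 10.5% of strong genes, were so. All isotypes past this size were strong ones, and strong genes passed it more often than genes in general. The median over the 10 isotypes was 0.11 at 5 µM and 0.07 at 20 µM against DMSO, and -0.12 for 20 against 5 µM, beside medians over all genes of 0.00, 0.01 and 0.00.

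**Figure D2:**
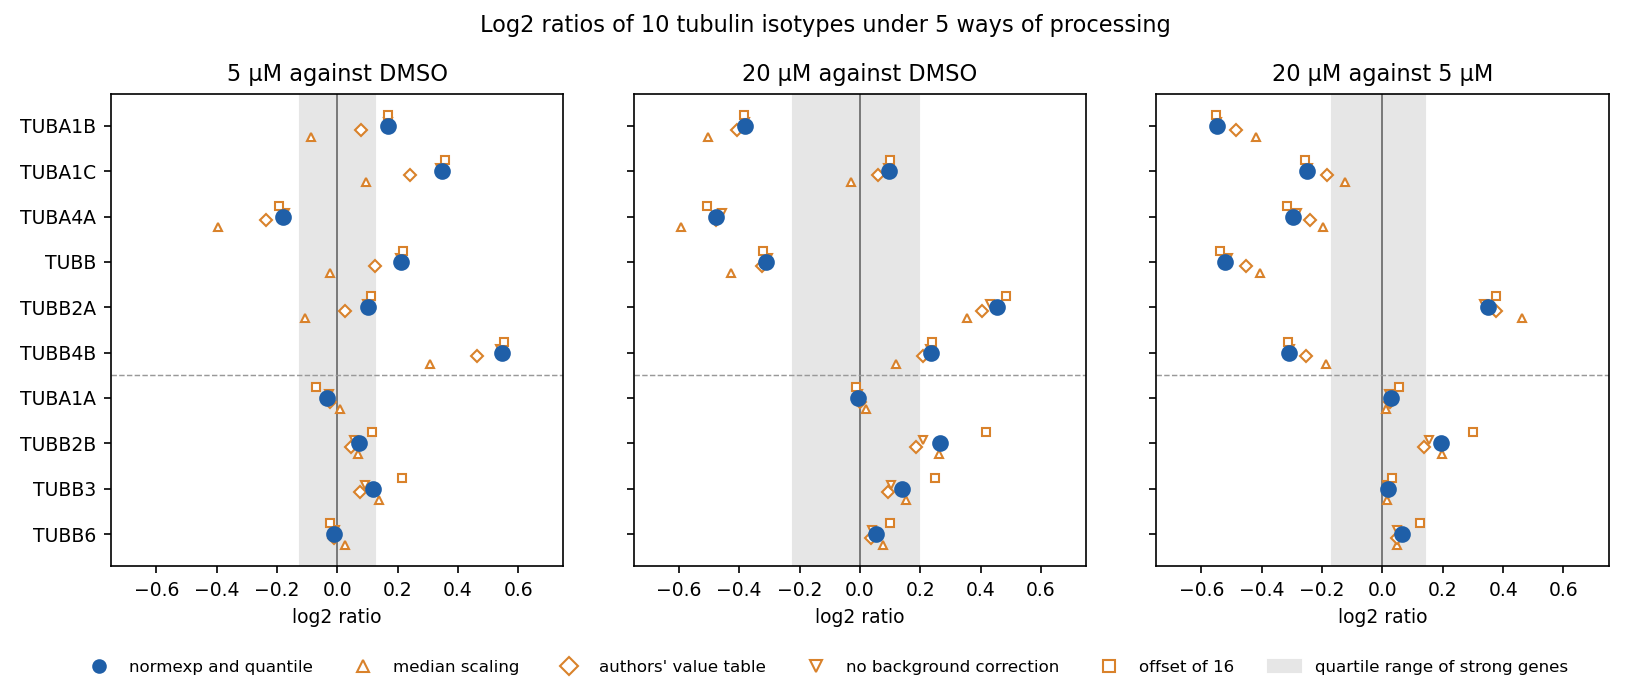
Log2 ratios of the 10 isotypes (rows; strong isotypes above the dashed line) in the comparisons of each dose with DMSO and of 20 with 5 µM. Blue circles are the values of the report, open symbols the 4 other ways of processing, and the grey band spans the quartiles of strong genes. Median scaling moves strong isotypes to the left at 5 µM against DMSO, while TUBB2A stays right of 0 and TUBA1B, TUBA4A and TUBB stay left of it at 20 µM against DMSO.

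Differences between isotypes on the same arrays are nearly free of the scaling. Of the 15 pairs of strong isotypes, 8 differed by more than 2 technical SDs in their ratio of 20 µM to DMSO, against 3 pairs in their ratio of 5 µM to DMSO. The 15 pairs come from 6 isotypes and are not independent. How often pairs of other strong genes differ by that much was not counted, so whether these counts are particular to tubulin is unknown. Strong genes in general also spread more widely at 20 µM against DMSO, with quartiles of -0.22 and 0.19. At 5 µM against DMSO their quartiles were -0.12 and 0.13. The largest of the 15 differences at 20 µM was that of TUBB2A above TUBA4A, 0.93 on the log2 scale or 1.91-fold. TUBB4B was 0.73 above TUBA4A at 5 µM against DMSO, the largest there. In 20 against 5 µM, TUBB2A was more than 2 technical SDs above each of the other 5 strong isotypes, by 0.60 to 0.90, and none of the other 10 pairs passed that size. This spread is between probes on these arrays and not between cultures.

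The weak isotypes could be read less well. TUBA1A, prominent in neurons, had 97.2 with DMSO, 89.6 with 5 µM and 92.9 with 20 µM. TUBB3 had 103, 101 and 105, and TUBB6, a beta tubulin of class V, had 99.3, 92.4 and 97.6 on its first probe and 96.3, 94.3 and 95.9 on its second. All these values were above the thresholds but below the median spot signal of their array, and no probe of the 3 genes had a log2 ratio past 0.32 in any comparison. TUBB2B, a class II beta tubulin whose gene lies beside TUBB2A on chromosome 6, gave 116, 111 and 127 on its first probe and 96.8, 93.0 and 96.6 on its second. The log2 ratio at 20 µM against DMSO was 0.27 on the first probe and 0.08 on the second, so the probes differed by 0.19. The other weak isotypes lay between -0.01 and 0.14 in that comparison. Of 2412 empty array positions, 0 to 7 were brighter than a weak probe on the same array, and the brightest of them reached 224 at 20 µM and 134 in DMSO.

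Promoter sequences of 5 strong isotypes, the 250 bases before each transcription start, are shown so that TUBB2A can be compared with TUBB, TUBA1B, TUBA4A and TUBB4B. They are from RefSeq on GRCh38.p14, written 5′ to 3′ on the gene's strand. Capitals mark matches, on either strand, of the motifs CCAAT (bound by NF-Y), GGGCGG (bound by Sp1), TATAAA (the TATA box) and TGACGTCA (the cAMP response element), which were chosen after the sequences were seen. TUBA1B lies at chr12:49131396-49131645, minus strand, and TUBA4A at chr2:219253919-219254168, minus strand. TUBB has 2 listed starts, at chr6:30720102-30720351 and chr6:30721388-30721637, plus strand; TUBB2A lies at chr6:3157545-3157794, minus strand; TUBB4B lies at chr9:137241037-137241286, plus strand.
TUBA1B: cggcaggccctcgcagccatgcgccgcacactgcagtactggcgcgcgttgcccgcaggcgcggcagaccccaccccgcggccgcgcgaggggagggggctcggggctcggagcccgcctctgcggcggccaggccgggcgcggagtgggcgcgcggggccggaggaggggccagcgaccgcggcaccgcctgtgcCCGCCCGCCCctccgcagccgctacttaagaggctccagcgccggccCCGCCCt
TUBA4A: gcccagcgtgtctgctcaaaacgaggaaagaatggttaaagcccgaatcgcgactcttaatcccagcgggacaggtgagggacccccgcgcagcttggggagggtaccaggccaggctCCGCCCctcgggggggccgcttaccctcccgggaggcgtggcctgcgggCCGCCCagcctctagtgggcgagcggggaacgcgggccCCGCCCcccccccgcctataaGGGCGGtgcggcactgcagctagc
TUBB, first start: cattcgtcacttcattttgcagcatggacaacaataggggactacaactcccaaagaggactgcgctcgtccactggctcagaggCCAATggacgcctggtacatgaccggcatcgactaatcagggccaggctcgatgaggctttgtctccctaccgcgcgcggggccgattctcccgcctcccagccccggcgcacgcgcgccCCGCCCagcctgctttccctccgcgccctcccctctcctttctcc
TUBB, second start: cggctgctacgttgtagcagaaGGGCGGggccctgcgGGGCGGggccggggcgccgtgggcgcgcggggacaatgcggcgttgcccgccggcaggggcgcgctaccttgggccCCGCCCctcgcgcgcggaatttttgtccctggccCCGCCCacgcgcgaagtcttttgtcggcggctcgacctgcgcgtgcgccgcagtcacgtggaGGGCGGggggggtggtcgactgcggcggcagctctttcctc
TUBB2A: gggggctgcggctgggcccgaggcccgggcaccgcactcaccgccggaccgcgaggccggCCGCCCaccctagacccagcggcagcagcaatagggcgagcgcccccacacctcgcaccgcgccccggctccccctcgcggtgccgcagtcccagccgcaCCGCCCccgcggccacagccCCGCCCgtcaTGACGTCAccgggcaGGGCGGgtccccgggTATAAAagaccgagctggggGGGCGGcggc
TUBB4B: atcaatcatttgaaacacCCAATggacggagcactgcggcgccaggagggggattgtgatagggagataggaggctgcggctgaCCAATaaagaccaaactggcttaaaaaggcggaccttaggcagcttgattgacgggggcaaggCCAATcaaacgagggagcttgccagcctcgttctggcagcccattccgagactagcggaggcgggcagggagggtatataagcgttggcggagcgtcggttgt

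Of 15 such windows listed for the 10 isotypes, that of TUBB2A alone held TATAAA and TGACGTCA, 1 match each, beside 5 of GGGCGG. TUBA1B held 3 matches of GGGCGG, a pair of them overlapping, and TUBA4A held 4. The second TUBB start held 5 of GGGCGG, its first start 1 of GGGCGG and 1 of CCAAT, and TUBB4B held 3 of CCAAT and 0 of GGGCGG. Among 35116 promoter windows of the same length, 32% held CCAAT, 42.6% GGGCGG, 10.7% TATAAA and 1.65% TGACGTCA. Only exact letters were counted. Strings close to TATAAA stand in other windows, such as tatataa in TUBB4B and TUBA1C and ctataa in TUBA4A and TUBB3. The TUBB2B window holds ttacgtca, close to TGACGTCA. TUBB2A is therefore not shown to be alone in having a TATA box or a cAMP response element. A match describes these letters and is not a measured binding site. Which TUBB start the cells used was not measured.

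Gene lists of the tubulin pathway were read in the same way, and none is tested. Of the chaperonin CCT, which folds tubulin and actin, 7 of 8 detected subunits lay below 0 at 20 µM against DMSO, with a median of -0.17, and 1 was at least 0.32 lower. All CCT subunits are strong genes, of which 50% lay below 0 and 16.4% were at least 0.32 lower. The subunit lower by that size was CCT8 at -0.45, with 2225 at 20 µM and 3459 in DMSO, while CCT7 was at -0.26 and CCT5 at -0.25. At 5 µM against DMSO the CCT median was -0.03. Under median scaling the CCT medians were -0.27 at 5 µM and -0.31 at 20 µM, so the gap between the doses depended on the scaling. Of 6 prefoldin subunits, which hand new tubulin to CCT, 1 was higher by that size, PFDN2 at 0.59, with 5144 at 20 µM and 3932 in DMSO. These are strong genes too, of which 14.1% were that much higher. PFDN1 was at -0.17 and PFDN5 at 0.16, and the prefoldin median was -0.01. None of the 7 folding cofactors passed 0.32 either way at 20 µM; their median was -0.06, with ARL2 at 0.29, TBCD at -0.27 and TBCB at -0.18.

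Of the 12 genes of tubulin mRNA autoregulation, 9 lay below 0 at 20 µM against DMSO, with a median of -0.09, and 1 was at least 0.32 lower and 0 higher. Of all genes 47.1% lay below 0 and 7.32% were at least 0.32 lower. Among strong genes 50% lay below 0 and 16.4% were at least 0.32 lower. The gene lower by that size was CNOT8, a catalytic subunit of the CCR4-NOT deadenylase, at -0.57, with 455 at 20 µM and 751 in DMSO. CNOT9 was at 0.24 and CNOT11 at -0.22, both of them CCR4-NOT subunits. At 5 µM against DMSO, 2 were lower by that size, CNOT8 at -0.36 and CNOT11 at -0.62. Both are strong genes, of which 4.45% were that much lower, beside 1.87% of all genes. TTC5, which recognises nascent tubulin, had 122 at 20 µM and 147 in DMSO, a ratio of -0.20. SCAPER had 110 and 124 on the same arrays, at -0.12.

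Of 16 detected tubulin modifying enzymes, 1 was higher by at least 0.32 at 20 µM, the deacetylase SIRT2 at 0.37, and 0 were lower; AGBL5, which removes glutamates from tubulin tails, and SVBP, the partner of the detyrosinating vasohibins, were both at -0.31. Of 20 detected microtubule-binding proteins, 2 were lower, STMN1 and CKAP5, both at -0.60, and 1 was higher, CLIP1 at 0.37. For both lists, the shares among all genes were 5.85% higher and 7.32% lower by that size. Among strong genes, to which STMN1 and CKAP5 belong, they were 14.1% and 16.4%. STMN1, or stathmin, binds free tubulin dimers and had 474 at 20 µM and 805 in DMSO, and CKAP5 is a microtubule polymerase with 498 and 840. A second CKAP5 probe was at -0.53, whereas a second probe of CLIP1, a protein of growing microtubule ends, was at -0.01.

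Of a list of other tubulins, 9 genes were detected on both arrays of 20 µM against DMSO. TUBA4B, which is not on that list, was at 0.01, with 128 at 20 µM and 136 in DMSO. TUBG1, the gamma tubulin from which microtubules are nucleated, had 906 at 20 µM and 1664 in DMSO, a log2 ratio of -0.70, but a second TUBG1 probe was at -0.25. Delta tubulin, TUBD1, a centriole protein, was at -0.58 on its first probe and -0.32 on its second, and epsilon tubulin, TUBE1, was at 0.40. TUBB4A was at 0.23, TUBA3E at 0.21, TUBG2 at 0.16, TUBA3C at -0.10, TUBA8 at -0.01 and TUBAL3 at 0.00, none past 0.32. TUBB1 was detected on 2 arrays, at 79.9 at 20 µM and 83.1 in DMSO, where 173 of 2412 empty positions were brighter. In the gamma-tubulin ring complex 1 of 7 genes was higher by 0.32, MZT1 at 0.38, and 1 was lower, TUBGCP3 at -0.34, while MZT2B was at -0.25. Of all genes, 5.85% were that much higher and 7.32% lower, and of strong genes 14.1% and 16.4%.

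Genes of mitosis had a median at 20 µM that lay farther from 0 than the ratio of any isotype. All 25 of the mitosis list were at least 0.32 lower than in DMSO, with a median of -1.07, and 14 were at least 2-fold lower, among them DLGAP5 at -1.81, CCNB1 at -1.55 and HMMR at -1.48. Of all genes, 7.32% were at least 0.32 lower at 20 µM and 0.324% at least 2-fold lower. Most of the list are strong genes, of which 16.4% were at least 0.32 lower. At 5 µM against DMSO the median of the list was -0.07, or -0.31 under median scaling and -0.15 in the authors' deposited value table. With quantile normalization 20 of 25 lay below 0 at 5 µM, where 47.9% of all genes did. At that dose 5 were at least 0.32 lower, where 1.87% of all genes and 4.45% of strong genes were. The list was chosen with earlier results of these data known, and its part in the tubulin values was not tested. Among other cytoskeleton genes, the actin gene ACTG1 was at 0.83 and ACTB at -0.01, and LMNB1, which encodes lamin B1, was at -0.95. The keratin gene KRT18 was at -0.40, or -0.35 under median scaling and -0.25 in the authors' value table. Its probe was the brightest on the DMSO array, where quantile normalization sets the value by rank. Of 10 housekeeping genes 3 were at least 0.32 lower at 20 µM, PPIA at -0.58, SDHA at -0.52 and GAPDH at -0.39, and 0 were higher, with a median of -0.16. Among strong genes, 16.4% were that much lower and 14.1% higher.

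**Figure D3:**
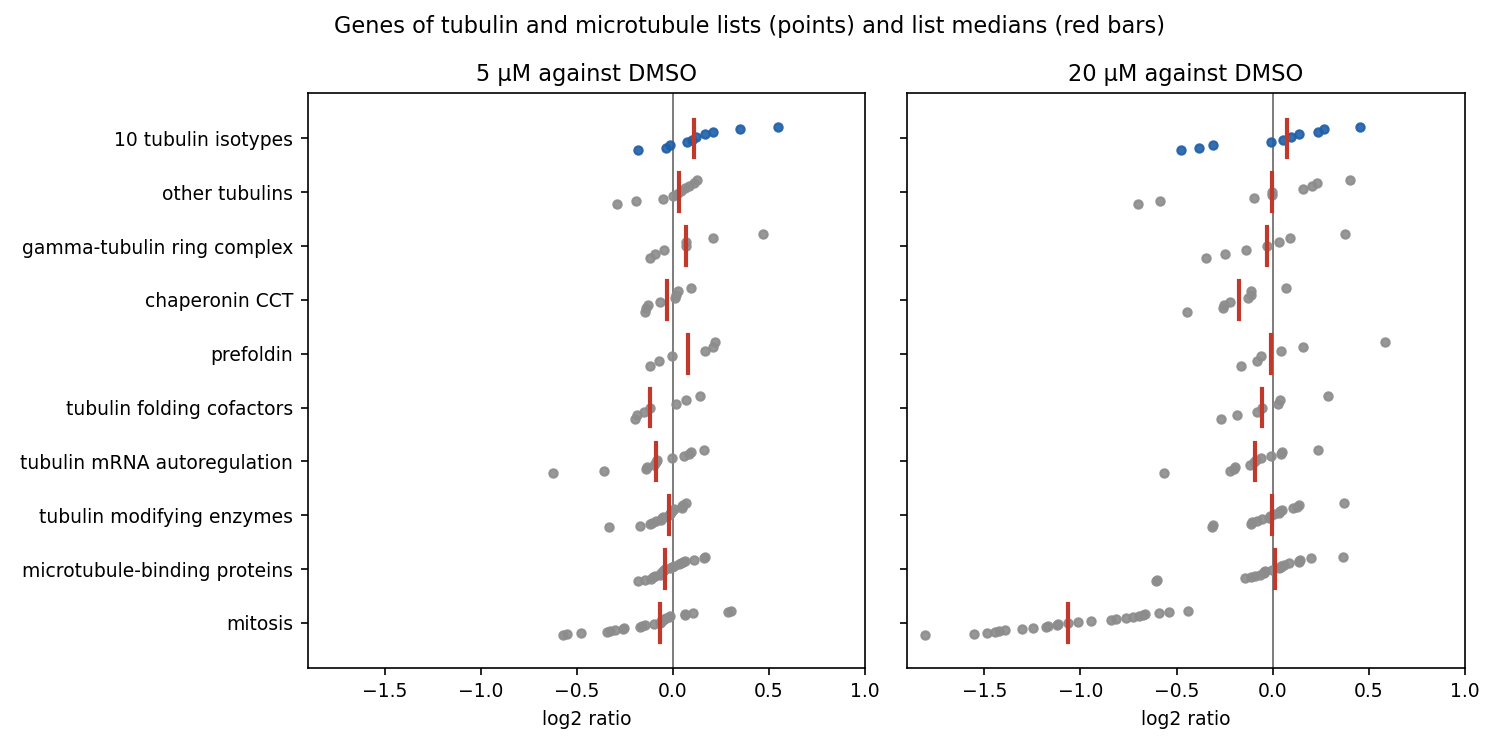
Log2 ratios of genes in lists of tubulin and microtubule biology (rows) for 5 µM against DMSO and 20 µM against DMSO; each point is a gene detected on both arrays, and red bars are list medians. At 20 µM the tubulin isotypes, in blue, spread to both sides of 0 around a median of 0.07, while all 25 mitosis genes lie left of 0 around -1.07. The lists were chosen with earlier results of these data known.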

How the data were processed

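Total RNA of 3 HT29 cultures was measured on Toray 1-colour arrays, 1 per group. Per the file headers, the deposited scanner files hold the median spot intensity at 635 nm with no background removed, read at 3 gains. The authors also deposited a value table of intensity per probe, linear, with every array's median at 25; its making is not described in the sources used here. It was used as an alternative, as log2(value + 50). The local background column was not used, because it followed the spot signal (Spearman 0.962 to 0.967 across spots).

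Spot signals were corrected with normexp (limma 3.58.1, R 4.3.3; offset 50, all spots), taken to log2 and quantile normalized over 24460 gene probes. A probe was detected above a threshold, the mean plus 2 SD of 480 blank and negative control spots trimmed by 5% at each end. Where a gene had several probes, that detected on most arrays, then the brightest, stood for it. Names came from the platform annotation: 21707 probes had 1 symbol and 2753 had none. Probe sequences were not used here, so cross-binding between near-identical tubulin copies was not tested, and the protein sequences of the isotypes were not used here.

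A gene entered a comparison if detected on both arrays. Genes with 2 probes gave the technical spread. The background correction and quantile normalization were tested on simulated arrays. Named in the text are all isotypes, the listed other tubulins with a probe, and the 3 genes nearest to the isotype farthest from 0. Up to 3 detected genes of each list with the largest ratio of 20 µM to DMSO are named too. TTC5, SCAPER, ACTB, CDX2, CDH17, EPCAM, DCN, TUBA4B, the undetected marker genes and the pseudogenes were added after their values were seen. The isotypes and lists were chosen with earlier results of these data known. Python 3.11.15 was used for tables, with pandas 2.3.3 and numpy 2.4.6, and matplotlib 3.10.9 for plots.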

Additional observations from a re-analysis of the deposited data

How the results depend on the processing

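Alternatives were median scaling, no background correction, an offset of 16, the authors' value table, no or a stricter detection filter, and the mean over a gene's probes. No isotype past 0.32 changed sign under any of them. Median scaling moved the median of strong genes by -0.21 for 5 µM against DMSO, -0.11 for 20 µM against DMSO and 0.10 for 20 against 5 µM. Under it, at 5 µM against DMSO, 1 isotype was lower (TUBA4A, at -0.40) and 0 were higher by at least 0.32, in place of 0 and 2; the value table gave 1 higher. At 20 µM against DMSO, 2 were higher with an offset of 16, TUBB2B joining TUBB2A at 0.42, and 3 were lower under median scaling, the offset of 16, the value table and probe means, TUBB joining TUBA1B and TUBA4A. The stricter filter kept the 6 strong isotypes, with a median of -0.11 at 20 µM against DMSO and -0.30 for 20 against 5 µM, and 1 below 0 at 5 µM against DMSO. Of 30 isotype ratios, 10 moved under median scaling by more than the technical SD over all genes with 2 probes (0.14 for 20 µM against DMSO, 0.11 for 5 µM against DMSO and 0.12 between the doses), 1 with the offset of 16 and 0 under the value table; none of 9 differences between isotypes did under these 3. The differences between isotypes were added to the alternatives after the data were seen. No paired analysis was possible because each group has 1 array. The low signal of the 4 weak isotypes limits what can be read from them.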

Other observations

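Probes annotated to tubulin pseudogenes, chosen here after their values were seen, gave signals too. TUBAP2, an alpha tubulin pseudogene, had a spot signal of 7390 with DMSO, 6057 with 5 µM and 5197 with 20 µM, and log2 ratios to DMSO of 0.06 at 5 µM and -0.31 at 20 µM. TUBBP5, a beta tubulin pseudogene, had 1122, 1142 and 1043 in the same order, with 0.37 at 5 µM and 0.06 at 20 µM. TUBB8P10 had 584, 560 and 551, with 0.28 and 0.10. Of the strong alpha isotypes, TUBA1B had 0.17 and -0.38 in these comparisons, TUBA1C 0.35 and 0.10, and TUBA4A -0.18 and -0.48. Of the strong beta isotypes, TUBB had 0.21 and -0.31, TUBB2A 0.10 and 0.45, and TUBB4B 0.55 and 0.24. Whether such probes bind the isotypes' own RNA was not tested.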
